A study of Homo sapiens with 4 samples.

Results

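The 10 genes described here encode the IL6 receptor pair, the kinases and the transcription factor that carry its signal, inhibitors of that signal and kinases of the PIM family. They are IL6R, IL6ST, JAK1, JAK2, TYK2, STAT3, SOCS1, SOCS3, PIM1 and PIM2. Each was found by its symbol in a table of 16057 genes, and all 10 had exactly 1 row. RNA sequencing was done on MM.1S, an established human multiple myeloma line, so the data describe 1 line grown alone in culture. One group was kept for 26 h with 350 nM JG342, which inhibits HSP70 chaperones from an allosteric site, and the other was kept for the same time with the solvent DMSO. Each group had 2 libraries, called biological duplicates by the submitters and numbered 1 and 2. Both groups grew in serum-supplemented medium, and the labels name no added IL6.

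IL6 binds the receptor encoded by IL6R, and the pair then joins gp130, the shared signalling chain encoded by IL6ST. The kinases JAK1, JAK2 and TYK2 sit on the inner part of gp130 and phosphorylate STAT3, which enters the nucleus and switches on genes such as SOCS3 and PIM1. SOCS1 and SOCS3 shut the kinases down again, while PIM kinases promote growth and survival. IL6 from bone marrow stroma is a classical growth and survival factor for myeloma cells, and PIM2 is known for its high expression in them.

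JAK1 and STAT3 transcripts rose after JG342, and PIM1 transcripts fell. The promoter sequences of these 3 genes are shown because they are the members that passed the test. Each is the stretch of 250 bases before a RefSeq start (GRCh38.p14), chosen as the start nearest to that of the gene's transcript in GENCODE. STAT factors bind the letters TTC and GAA separated by a short gap. Capitals mark a match to TTCNNGAA, which reads the same on both strands.
STAT3, chr17:42388443-42388692, minus strand: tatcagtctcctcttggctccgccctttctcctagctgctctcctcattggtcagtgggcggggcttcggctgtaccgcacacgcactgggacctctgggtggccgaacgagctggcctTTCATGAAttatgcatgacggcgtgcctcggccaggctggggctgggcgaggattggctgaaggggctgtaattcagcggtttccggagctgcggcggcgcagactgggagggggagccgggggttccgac
JAK1, chr1:64966550-64966799, minus strand: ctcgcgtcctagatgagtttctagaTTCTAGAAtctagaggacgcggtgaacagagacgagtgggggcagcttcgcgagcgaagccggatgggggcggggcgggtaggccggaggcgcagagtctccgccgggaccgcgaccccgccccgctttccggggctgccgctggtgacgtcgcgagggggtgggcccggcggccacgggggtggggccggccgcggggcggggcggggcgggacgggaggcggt
PIM1, chr6:37169902-37170151, plus strand: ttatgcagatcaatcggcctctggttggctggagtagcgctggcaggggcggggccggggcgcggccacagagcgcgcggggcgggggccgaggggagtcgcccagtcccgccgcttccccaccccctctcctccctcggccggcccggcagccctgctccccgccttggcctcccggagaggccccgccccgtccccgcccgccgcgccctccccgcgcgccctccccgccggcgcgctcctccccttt

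The match lay 131 bases before the start in STAT3 and 225 bases before it in JAK1, and the PIM1 window held none. Over all members RefSeq lists 16 such windows, since JAK1, JAK2 and SOCS3 have several starts, and some of the JAK2 windows overlap. Some lay far from the start of the gene's GENCODE transcript. The distance was 18685 bases for the only IL6ST window, 101242 for a JAK1 window and 56287 for a JAK2 window. TTCNNGAA occurred in 4 of the 16, in STAT3, JAK1, IL6R and 1 SOCS3 window, against 6.62% of all 35116 windows. The start of that SOCS3 window lay 848 bases before the transcript's start. That of the other SOCS3 window lay 410 bases after it. Neither SOCS3 window covered the bases directly before the transcript's start, so sites there were not searched. The other gaps, TTCNNNGAA and TTCNNNNGAA, occurred in none of the 16, against 6.57% and 5.38% of all windows. TGATGNAA, the core of the element bound by ATF4, was found on either strand in 1 JAK2 window and in 3.14% of all windows. The start of that JAK2 window lay 855 bases from the transcript's start, against 27 for the nearest. GAANNTTCNNGAA, the heat shock element bound by HSF1, was in none of the 16 and in 0.441% of all windows. The search began with TTCNNNGAA, TGATGNAA and GAANNTTCNNGAA, and the 2 other gaps were added after the first had given no match. The pattern marked in capitals is also the last part of the heat shock element searched here. Its matches therefore cannot tell a STAT site from a part of such an element. All of the above are letter matches in short windows, and binding was not measured.

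Levels are given in TPM, which scales each library's length-corrected reads to the same total. Fewer cells expressing a gene and less RNA per cell cannot be told apart in such data. The test was limma on log2(TPM + 1), fitted to the 12042 genes that averaged 1 TPM or more, with p-values adjusted over all of them by the Benjamini-Hochberg method and a threshold of 0.05. The 4 libraries summed to between 994463 and 994718 TPM. The steps between low values put their depth at roughly 8650000 to 9580000 reads over 15231 genes of known length, and the 2 groups overlapped in depth. All 10 plasma cell markers were above a mean of 1 TPM. Their sum lay between 14840 and 15120 TPM in DMSO and between 10250 and 10940 TPM in JG342, and JCHAIN, the immunoglobulin joining chain, alone went from 9907 and 10383 TPM to 5732 and 5431 TPM. The other 9 summed to 5209 and 4454 TPM in DMSO and to 5209 and 4820 TPM in JG342, with overlap. Among the 10 markers JCHAIN and TNFRSF17 fell (log2 fold changes −0.86 and −0.44, limma adjusted p 0.00117 and 0.0472) and IRF4 and PRDM1 rose (0.77 and 0.36, limma adjusted p 0.000986 and 0.0410). TNFRSF17 and PRDM1 lost their calls after median scaling (limma adjusted p 0.0553 and 0.0946), without DMSO replicate 1 (0.288 and 0.0619) and in other fits. The part of these markers in the results below was not tested. Of the markers of other cells, 3 of 3 stromal genes, 2 of 3 B cell genes, 2 of 4 T cell genes and 3 of 4 monocyte genes stayed below 1 TPM in every library. No gene of these lists was at 0 in all 4 libraries. The exceptions above 1 TPM were CR2, CD3E, CD3G and LYZ, of which CD3G rose (log2 fold change 0.80, limma adjusted p 0.0152), a call lost without DMSO replicate 1 or JG342 replicate 1 (0.0969 and 0.0573).

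In DMSO the 10 members spanned more than 3 orders of magnitude on the TPM scale. PIM2 was the highest at 1220 ± 117 TPM (SD, n = 2), followed by IL6R at 162 ± 12.2 TPM. JAK1, IL6ST, TYK2 and PIM1 followed with means between 46.0 and 67.5 TPM, and neighbours in that order overlapped in range. STAT3 at 21.6 TPM, JAK2 at 6.85 TPM, SOCS1 at 3.79 TPM and SOCS3 at 0.43 TPM came last, with no overlap between neighbours. After JG342 the order was the same except that STAT3, at 34.7 ± 3.13 TPM, stood above PIM1, at 27.5 ± 2.60 TPM.

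**Figure D1:**
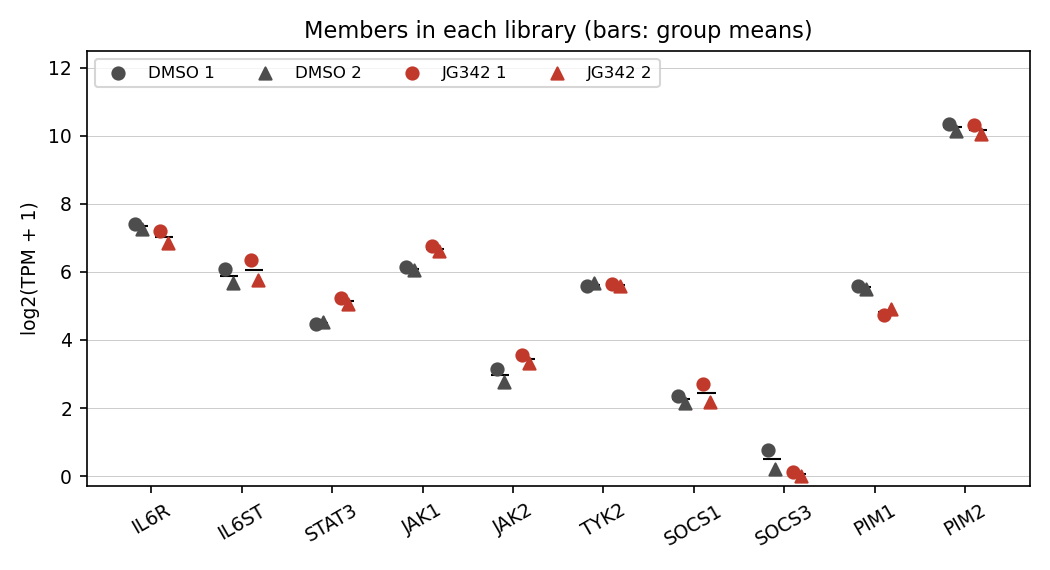
Level of each member in each library as log2(TPM + 1), with DMSO in grey, JG342 in red, circles for replicate 1, triangles for replicate 2 and bars at the group means of the plotted values. JAK1 and STAT3 sit higher in both JG342 libraries, PIM1 sits lower, and PIM2 is the most abundant member in all 4.

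Of the 10 members, 9 reached the mean of 1 TPM and were fitted, and SOCS3 did not. The test called 3 of the 9, with 2 higher and 1 lower after JG342. Among all fitted genes 18.4% were called, 10.8% as higher and 7.62% as lower. The values of the 2 groups did not overlap for 5 of the 9 fitted members, against 62.1% of all fitted genes, a share near the background. With the replicate number as a block 5 members were called, against 34.9% of all genes, or 35.1% with median scaling in addition, and the added members were IL6R and JAK2. The 9 fitted members had a median log2 fold change of 0.18, against 0.03 over all fitted genes, and they ran from −0.72 to 0.66. The members and the gene lists below were chosen with earlier results of these data known. Their shares and medians set against all genes may reflect that choice.

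**Figure D2:**
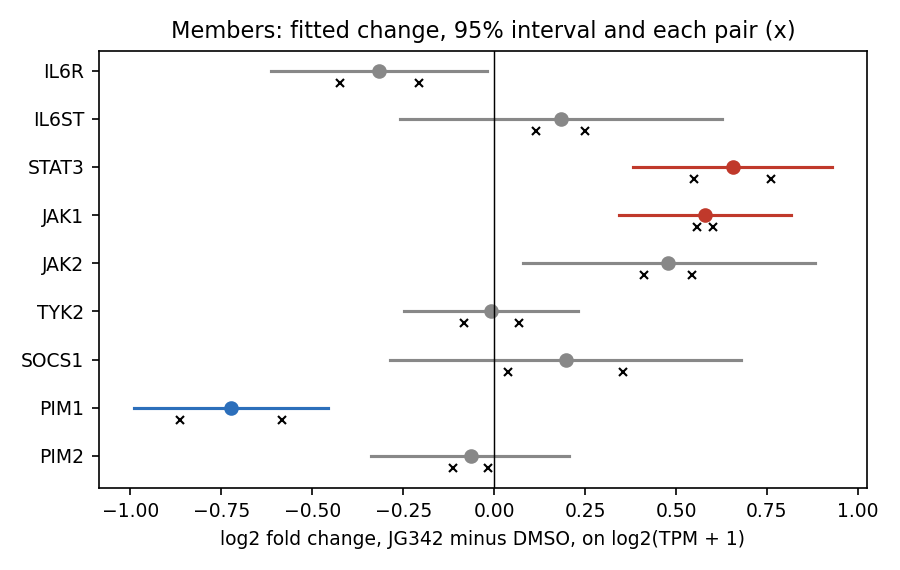
Fitted log2 fold change of the 9 tested members (points) with its 95% interval from limma (lines), and the change within each same-numbered pair (crosses); red marks a rise and blue a fall past the threshold, and grey marks no call. PIM1 lies at −0.72, JAK1 at 0.58 and STAT3 at 0.66, and both pairs of each lie on the same side of 0.

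At the receptor, IL6R (NM_000565), which encodes the chain that binds IL6, was measured at 170.5 and 153.3 TPM in DMSO and at 147.4 and 113.9 TPM in JG342. Both JG342 libraries were lower than both DMSO libraries, and JG342 replicate 2 was the lowest. The log2 fold change of −0.32 ± 0.13 SE (95% interval −0.61 to −0.02) did not pass (limma adjusted p 0.126). In the fit with a replicate block it did pass, at a limma adjusted p of 0.00184, or 0.00407 when the libraries were also scaled to equal medians. The estimate moved with single libraries. Without JG342 replicate 1 the log2 fold change was −0.50, with a limma adjusted p of 0.0280, but it was −0.13 without JG342 replicate 2 (0.524), −0.24 without DMSO replicate 1 (0.408) and −0.39 without DMSO replicate 2 (0.207).

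IL6ST (NM_001190981), the gene of gp130, stood at 67.1 and 49.6 TPM in DMSO and at 80.0 and 53.8 TPM in JG342. The groups overlapped, and replicate 1 was the higher library in each. Its log2 fold change was 0.18 ± 0.20 SE (95% interval −0.26 to 0.63, limma adjusted p 0.549), and it turned to −0.03 without DMSO replicate 2 and to −0.10 without JG342 replicate 1. The matched transcript shares 39.8% of its length with the pseudogene IL6STP1 at up to 97.5% identity, and the antisense gene AC008914.1 covers 8.6% of IL6ST exonic bases, so reads may be split between them. The ratio of IL6R to IL6ST was 2.54 and 3.09 in DMSO and 1.84 and 2.12 in JG342, lower in both JG342 libraries; the ratio was not tested.

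Other genes at the receptor included 2 calls, both in the list of receptors and sheddases. Of 7 ligand genes of the IL6 family in the table, 4 were fitted and none was called with a limma adjusted p under the threshold; with the replicate block IL11 was called (0.0367), but not with median scaling in addition (0.0729). IL6 itself was at 0.66 and 0.55 TPM in DMSO and at 0.19 and 0.62 TPM in JG342, too low for the test. Of 7 other receptor and sheddase genes 5 were fitted, and IL27RA fell while ADAM17 rose, 40% called against 18.4% of all genes. With the replicate block 1 was called higher and 2 lower, against 34.9% of all genes called. The added call was ADAM10, a sheddase gene like ADAM17. It went from 77.6 and 89.2 TPM in DMSO to 69 and 57.2 TPM in JG342 (−0.4 ± 0.125 SE). ADAM10 did not pass in the reported fit (limma adjusted p 0.0556), but did with the block (0.000364, or 0.0043 with median scaling in addition). IL27RA, the IL27-binding partner of gp130, went from 9.88 ± 0.63 to 6.04 ± 0.71 TPM (SD, n = 2; log2 fold change −0.63 ± 0.16 SE, limma adjusted p 0.0247). ADAM17, a protease that can release IL6R from the cell surface, went from 19.1 ± 0.63 to 26.6 ± 0.95 TPM (0.46 ± 0.12, limma adjusted p 0.0290). Neither held in every fit: IL27RA lost its call without DMSO replicate 1, DMSO replicate 2 or JG342 replicate 1 (limma adjusted p 0.0842, 0.156 and 0.0868). ADAM17 lost it without any 1 library (0.0589 to 0.160) and after median scaling (0.0522).

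Among the kinases on gp130, JAK1 (NM_001320923) was at 70.1 and 65.0 TPM in DMSO and at 106.9 and 96.1 TPM in JG342. Both JG342 libraries were well above both DMSO libraries. JAK1 rose by 0.58 ± 0.10 on the log2 scale (95% interval 0.34 to 0.82, limma adjusted p 0.00754). This is a fold of 1.49 in TPM + 1, with 0.60 in pair 1 and 0.56 in pair 2. Without DMSO replicate 2 the call was lost, at 0.53 and a limma adjusted p of 0.0640.

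JAK2 (NM_001322194) was scarcer, at 7.84 and 5.86 TPM in DMSO and at 10.8 and 9.01 TPM in JG342. The groups did not overlap, but the gap between them was smaller than the spread within DMSO. Its log2 fold change of 0.48 ± 0.18 SE (95% interval 0.08 to 0.88) did not pass (limma adjusted p 0.0933). Adding the replicate block brought it past the threshold (limma adjusted p 0.0110, or 0.0341 with median scaling in addition). With any 1 library left out and no block it did not pass, and the estimate ran from 0.30 without DMSO replicate 2 (limma adjusted p 0.441) to 0.66 without DMSO replicate 1 (0.0907).

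TYK2 (NM_003331) was level across the libraries, with 47.0 and 49.9 TPM in DMSO and 49.3 and 47.0 TPM in JG342. The ranges overlapped almost fully. The difference was −0.01 ± 0.11 SE with a 95% interval of −0.25 to 0.24 (limma adjusted p 0.968), so changes larger than about 0.25 in either direction lie outside the interval. JAK3, which pairs with the common gamma chain rather than gp130, was at 19.1 and 14.8 TPM in DMSO and at 28.7 and 20.2 TPM in JG342, with no call (0.49 ± 0.19, limma adjusted p 0.0994). It was called with the replicate block (limma adjusted p 0.000972, or 0.00788 with median scaling in addition) and without JG342 replicate 2 (0.0160).

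The mix of JAK transcripts differed between the groups. The 4 JAK genes summed to 144.1 and 135.6 TPM in DMSO and to 195.7 and 172.3 TPM in JG342. JAK1 held 48.6% and 48.0% of that sum in DMSO and 54.6% and 55.8% in JG342, and TYK2 held 32.6% and 36.8%, then 25.2% and 27.3%. The shares of JAK1 and TYK2 did not overlap between the groups; they were not tested.

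STAT3 (NM_003150), the main factor activated by gp130, was at 21.4 and 21.9 TPM in DMSO and at 36.9 and 32.5 TPM in JG342. The DMSO libraries were nearly equal, and both JG342 libraries stood well above them. STAT3 rose by 0.66 ± 0.12 on the log2 scale (95% interval 0.38 to 0.93, limma adjusted p 0.00798). This is a fold of 1.58 in TPM + 1, with 0.76 in pair 1 and 0.55 in pair 2. It was past the threshold under all 13 alternative settings, with log2 fold changes from 0.57 to 0.75 and a largest limma adjusted p of 0.0487.

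Of 5 other listed JAK and STAT genes that were fitted, 2 rose and none fell, which is 40% called against 18.4% of all genes, or 10.8% called as higher. With the replicate block 5 of the 5 were called as higher, against 34.9% of all genes called, and with median scaling in addition 4 were called. The 5 estimates were all above 0, and their median log2 fold change was 0.56, against 0.03 over all fitted genes. This list too was chosen with earlier results known, so its share and median may reflect that choice. STAT2, which acts in the interferon response, went from 55.0 and 58.5 TPM to 101.9 and 88.5 TPM (0.73 ± 0.11 SE, limma adjusted p 0.00328). STAT4, known from IL12 signalling, went from 10.5 and 10.3 TPM to 17.1 and 16.5 TPM (0.65 ± 0.13, limma adjusted p 0.0112). STAT4 lost its call without DMSO replicate 1 or DMSO replicate 2 (limma adjusted p 0.0577 and 0.0754), and STAT2 did not.

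STAT6 and STAT5B were not called, at 0.56 ± 0.19 and 0.36 ± 0.14 SE (limma adjusted p 0.0744 and 0.105), and STAT5A stayed below 1 TPM in every library. The replicate block changed both calls, with limma adjusted p 1.77e-06 for STAT6 and 0.0372 for STAT5B. With median scaling in addition STAT6 kept its call (0.00127) and STAT5B did not (0.0712). STAT6 also passed without DMSO replicate 2 or JG342 replicate 1 (limma adjusted p 0.0370 and 0.0298). The 6 genes STAT2, STAT3, STAT4, STAT5A, STAT5B and STAT6 summed to 130.1 and 150.8 TPM in DMSO and to 223 and 219.8 TPM in JG342. The share of STAT3 in that sum was 16.4% and 14.5% in DMSO and 16.6% and 14.8% in JG342, so its share overlapped between groups while its level did not.

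**Figure D3:**
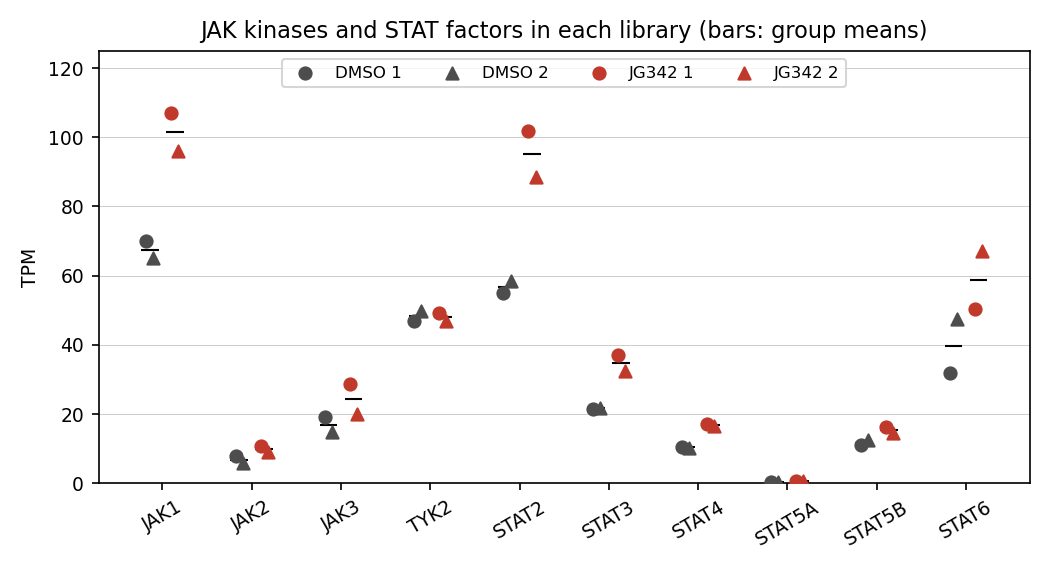
TPM of the listed JAK kinases and STAT factors in each library, with DMSO in grey, JG342 in red, circles for replicate 1, triangles for replicate 2 and bars at the group means. JAK1, STAT2, STAT3 and STAT4 lie higher in both JG342 libraries and passed the test, while TYK2 stays between 47.0 and 49.9 TPM.

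Of the feedback inhibitors, SOCS1 (NM_003745) was at 4.12 and 3.45 TPM in DMSO and at 5.55 and 3.57 TPM in JG342. The groups overlapped, and the higher JG342 value came from replicate 1. The log2 fold change was 0.20 ± 0.21 SE (95% interval −0.28 to 0.68, limma adjusted p 0.556), and it was −0.06 without JG342 replicate 1.

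SOCS3 (NM_003955), the inhibitor most directly induced by STAT3, was near the limit of detection. It was at 0.70 and 0.16 TPM in DMSO and at 0.08 TPM in JG342 replicate 1, and it was listed at 0 in JG342 replicate 2. By the steps between low values these correspond to roughly 9.0 and 2.0 reads in DMSO and 1.0 and 0.0 reads in JG342. The JG342 libraries were the lower ones, but most of the DMSO signal came from 1 library. SOCS3 fell below the 1 TPM minimum of the test. Fitted without that minimum, together with all 16057 genes, it had a log2 fold change of −0.43 ± 0.20 SE (95% interval −0.95 to 0.08) and was not called (limma adjusted p 0.252).

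Among 15 fitted inhibitor genes that are no members, PIAS3 was the only call, against 18.4% of all genes called; with the replicate block 4 were called, against 34.9%. PIAS3, named as a protein inhibitor of activated STAT3, rose from 21.1 ± 0.33 to 29.9 ± 1.2 TPM (SD, n = 2; 0.48 ± 0.12 SE, limma adjusted p 0.0216), and lost its call without DMSO replicate 1, DMSO replicate 2 or JG342 replicate 2 (0.0693 to 0.106). The median log2 fold change of the 15 was 0.07, with 8 estimates above 0 and 7 below. CISH, a SOCS family member best known as a target of STAT5, was at 1.71 and 2.14 TPM in DMSO and at 1.29 and 0.48 TPM in JG342 without passing (−0.66 ± 0.26, limma adjusted p 0.106). It did pass with the replicate block (limma adjusted p 0.00993, or 0.0391 with median scaling in addition) and without JG342 replicate 1 (0.0383), and it was chosen after its values were seen. SOCS transcripts, CISH included, summed to 47.7 and 48.5 TPM in DMSO and to 52.3 and 47.9 TPM in JG342, which overlapped.

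PIM1 (NM_001243186), a kinase gene induced by STAT3 and STAT5, was at 47.5 and 44.5 TPM in DMSO and at 25.7 and 29.4 TPM in JG342. Every JG342 value was well below every DMSO value. PIM1 fell by 0.72 on the log2 scale (SE 0.12, 95% interval −0.99 to −0.46, limma adjusted p 0.00499). This is a fold of 0.606 in TPM + 1, with −0.86 in pair 1 and −0.58 in pair 2. All 13 alternative settings kept it past the threshold, with values from −0.82 to −0.63 and a largest limma adjusted p of 0.0409.

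PIM2 (NM_006875) was the dominant PIM kinase and was measured at 1303 and 1138 TPM in DMSO and at 1288 and 1051 TPM in JG342. The groups overlapped, and replicate 2 was lower in both. The log2 fold change was −0.07 ± 0.12 SE, with a 95% interval of −0.34 to 0.21 (limma adjusted p 0.746). PIM3, the remaining family member, was at 39.1 and 39.0 TPM in DMSO and at 30.8 and 31.4 TPM in JG342, lower in both but not past the threshold (−0.32 ± 0.11, limma adjusted p 0.0719). It passed with the replicate block (limma adjusted p 0.0194, or 0.00811 with median scaling in addition) and with median scaling alone (0.0393).

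PIM2 made up 93.8% and 93.2% of the summed PIM transcripts in DMSO and 95.8% and 94.5% in JG342. The sum was 1390 and 1221 TPM in DMSO and 1344 and 1112 TPM in JG342, which overlapped. The ratio of PIM2 to PIM1 was 27.4 and 25.6 in DMSO and 50.1 and 35.8 in JG342, and that difference was not tested. PIM1 itself held 3.42% and 3.64% of the sum in DMSO and 1.91% and 2.64% in JG342.

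The genes in no list whose profile over the 4 libraries was most like that of PIM1 were PMCH, C20orf27 and DPF3. The measure was the Euclidean distance between centred log2(TPM + 1) values, which was 0.0301, 0.0508 and 0.106. Each fell, by log2 fold changes of −0.70, −0.72 and −0.65 (limma adjusted p 0.0101, 0.00493 and 0.0131). With 4 libraries in 2 groups, such likeness mostly records a similar fall. PMCH lost its call without either DMSO library (limma adjusted p 0.0689 and 0.0595), and DPF3 without DMSO replicate 1 (0.0984).

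STAT3 target genes went both ways. Of 15 fitted targets that are no members, 2 rose and 4 fell, 40% in all against the 18.4% of all genes, and the median log2 fold change was −0.08. MYC, the growth-promoting transcription factor, fell from 288 ± 4.09 to 181 ± 0.48 TPM (SD, n = 2; −0.66 ± 0.09 SE, limma adjusted p 0.00206). JUNB, an AP-1 factor induced early by IL6, fell from 50.2 ± 1.51 to 29.7 ± 3.77 TPM (−0.74 ± 0.12, limma adjusted p 0.00516). CEBPB, a factor of the acute-phase response that is also induced by ATF4, rose from 16.9 and 31.3 TPM to 147.1 and 169.7 TPM (2.72 ± 0.23, limma adjusted p 0.000223).

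The remaining calls among the targets were MCL1, BIRC5 and IER3, which were named after their values were seen. MCL1, a survival factor of the BCL2 family on which myeloma cells often depend, rose by 0.43 ± 0.09 SE, from 268.5 and 257.6 TPM to 364.5 and 347.3 TPM (limma adjusted p 0.0120). BIRC5, an inhibitor of apoptosis made in dividing cells, fell by 0.65 on the log2 scale (limma adjusted p 0.00828). IER3, an early response gene, fell by 0.81 with a limma adjusted p of 0.0451, and its DMSO libraries differed, at 4.51 and 7.73 TPM. Without DMSO replicate 2 these 3 calls were lost (limma adjusted p 0.0994, 0.0720 and 0.291), as was that of MCL1 without DMSO replicate 1 (0.0572) and that of IER3 without JG342 replicate 2 (0.104). The 9 other fitted targets, among them BCL2L1 and CCND2, did not pass in the reported fit, with log2 fold changes of −0.17 and −0.08 for these 2 (limma adjusted p 0.475 and 0.582). With the replicate block 4 of the 15 targets were called higher and 5 lower, against 34.9% of all genes called. The added calls were ZFP36, ICAM1 and IRF1 (limma adjusted p 0.000701, 0.0259 and 0.0461). With median scaling in addition ZFP36 kept its call (0.00337), ICAM1 and IRF1 did not (0.0734 and 0.149), and BCL2L1 was called (0.0416).

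Genes encoding PIM substrates, with PIM3, were called as often as the STAT3 targets. Of 15 fitted, 4 rose and 2 fell, 40% in all against 18.4% of all genes, and the median log2 fold change was 0.02. With the replicate block 4 were called higher and 5 lower, against 34.9% of all genes called. EIF4EBP1, which restrains cap-dependent translation and is also a target of ATF4, rose from 136.4 and 168.5 TPM to 328.9 and 372.0 TPM (1.2 ± 0.12 SE, limma adjusted p 0.000512). CXCR4, a chemokine receptor that guides cells to the bone marrow, fell from 38.8 and 36.0 TPM to 22.2 and 22.1 TPM (−0.73 ± 0.11, limma adjusted p 0.00406). CDC25A, a phosphatase that drives entry into DNA replication, fell from 38.3 ± 6.50 to 21.7 ± 2.74 TPM (SD, n = 2; −0.79 ± 0.15, limma adjusted p 0.00900). CDKN1A, FOXO1 and TSC2, named after their values were seen, rose by 0.55, 0.65 and 0.45 (limma adjusted p 0.0257, 0.0334 and 0.0281). Without DMSO replicate 2 all 3 lost their calls (limma adjusted p 0.165, 0.0599 and 0.171), and so did CDC25A (0.0763). TSC2 also lost its call without any other single library (0.0530 to 0.0904), FOXO1 without DMSO replicate 1 (0.191) or JG342 replicate 2 (0.102), and CDKN1A without JG342 replicate 1 (0.109). These genes respond to many inputs, and PIM activity was not measured.

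**Figure D4:**
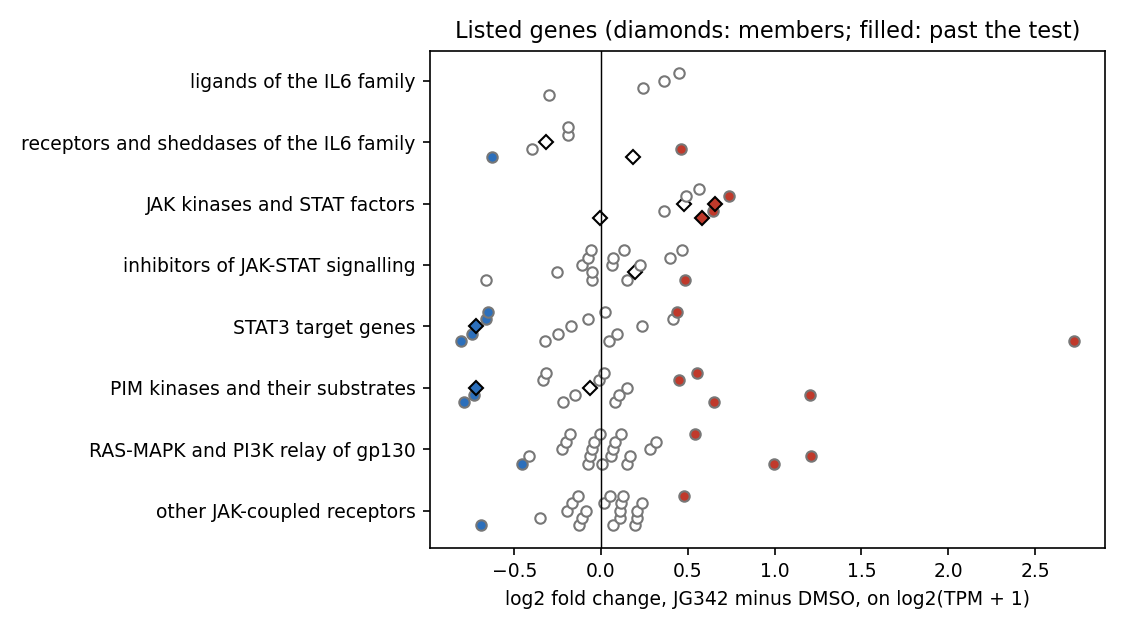
Fitted log2 fold change (JG342 minus DMSO) of every tested gene in the 8 pathway lists, 1 list per row; diamonds are members, filled red symbols rose and filled blue symbols fell past the threshold, open symbols did not pass, and the vertical spread within a row only separates points. The JAK and STAT row has no gene called lower, while the rows of STAT3 targets and PIM substrates hold calls on both sides.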

How the data were processed

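RNA sequencing values of 4 MM.1S libraries (2 with DMSO, 2 with JG342) were analysed. The authors deposited 1 table with a symbol, a RefSeq mRNA accession and a value per library for each gene. The deposited values are treated here as TPM, because the library totals lie between 994463 and 994718; no label or header states the unit. HISAT2 2.0.4, Bowtie2 2.2.5 and RSEM 1.2.12 are named, per the submitters' processing notes. Genome build, annotation, strand setting and filters are not given in the sources used here.

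Values were transformed to log2(TPM + 1), genes averaging 1 TPM or more were kept, and JG342 was compared with DMSO in limma 3.58.1 (R 4.3.3; trend, two-sided, Benjamini-Hochberg, treatment as the only term). Fold changes on this scale understate changes of low genes. With 2 libraries per group the standard errors rest mostly on variance shared across genes (2 residual and 6.89 prior degrees of freedom). An exact permutation test of 2 against 2 cannot go below p = 0.333 and was not used. The script was tested on simulated data.

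Same-numbered libraries share a prefix in their sample descriptions, and the Pearson r between their deviations from the group means was 0.27 across genes. A fit with the replicate number as a block was therefore run. It left 1 residual degree of freedom and an infinite prior, and with median scaling the prior was 9.72. With an infinite prior each gene's own spread carries no weight, so the p-values of that fit may be too small.

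TPM keeps no depth. The worth of 1 read was estimated from the commonest product of TPM and length among transcripts of at least 1500 nt at up to 0.5 TPM. It was 0.202 to 0.229 TPM per kilobase and entered no test. Lengths and starts came from GENCODE 29, promoters from RefSeq (GRCh38.p14, all 10 members matched), and copies were searched with BLAST 2.17.0 at an identity of at least 90%.

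One listed pathway gene is not reported here. Members and gene lists were chosen with earlier results of these data known. Besides the members, the text names up to 3 called genes with the smallest p per list, relatives in the PIM, SOCS and JAK families, and the 3 genes most like PIM1. STAT5A, STAT5B, STAT6, IL6, BCL2L1, CCND2, IL11, ADAM10, ZFP36, ICAM1, IRF1, JCHAIN, IRF4, PRDM1, TNFRSF17, CR2, CD3E, CD3G, LYZ and IL2RG were also named after their values were seen.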

Additional observations from a re-analysis of the deposited data

How the results depend on the processing

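The counts over all genes, members and pathway genes and the log2 fold changes of 48 named genes were recomputed under 13 alternatives: 2 pseudocounts (0.1 and 0.5), no filter, a filter at 5 TPM, median scaling, quantile normalization, a replicate block, that block with median scaling, no mean-variance trend, and each library left out. Sums, shares and ratios of levels were not recomputed. PIM1 and STAT3 were past the threshold in all 13 and JAK1 in 12. With the replicate block, 4207 genes (2316 higher, 1891 lower), 5 members and 40 pathway genes were called, and with median scaling in addition 4226 (1759 higher, 2467 lower), 5 and 37, against 2221 (1304 higher, 917 lower), 3 and 23 in the reported fit. Median scaling alone gave 2169 genes (967 higher, 1202 lower) and 20 pathway genes (9 higher, 11 lower, against 14 and 9). Without a filter 828 genes and 9 pathway genes were called; more genes with low values were then fitted. Leaving out 1 library gave 773 to 1905 genes, the fewest without DMSO replicate 2 and 1060 without DMSO replicate 1. Pathway calls ran from 10 without DMSO replicate 2 to 21 without JG342 replicate 2, with 13 without DMSO replicate 1. These fits had fewer samples, and the lone library was assumed to vary like the other group. Among the 48 genes, signs turned only in IL6ST, TYK2, SOCS1, PIM2 and BCL2L1, none of them called, when 1 library was left out. IL6ST ran from −0.099 to 0.465 and was −0.031 without DMSO replicate 2. TYK2 ran from −0.050 to 0.034 and was 0.026 without JG342 replicate 2. SOCS1 ran from −0.063 to 0.457, and PIM2 from −0.212 to 0.081, with 0.033 without DMSO replicate 1. BCL2L1 ran from −0.367 to 0.026 and was 0.011 without JG342 replicate 2. The replicate block added the calls of IL6R, JAK2, JAK3, STAT5B, STAT6, PIM3 and CISH, and changed no other call among the 48 genes. SOCS3 entered only the fit without a filter, and the filter at 5 TPM left out SOCS1, CISH and IER3. PRDM1, TNFRSF17, ADAM17, IFNGR1, FOXO1, BRAF and CDKN1A lost their calls under median scaling. Without a filter 19 of the 48 genes lost theirs, among them GAB2, BIRC5, CDC25A, STAT4 and IL27RA. Without the mean-variance trend 9 did, among them MCL1, MAPK3 and TSC2, and with quantile normalization 5 did.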

Other observations

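Beside JAK and STAT, gp130 also feeds the RAS-MAPK and PI3K routes, and 4 of their 22 genes were called, 18.2% against 18.4% of all genes. The fit with the replicate block called 4 of the 22 higher and 2 lower, against 34.9% of all genes called. GAB2 and SOS2, an adaptor and an exchange factor that link receptors to RAS, rose by log2 fold changes of 1.21 ± 0.20 and 0.99 ± 0.16 SE (limma adjusted p 0.00562 and 0.00493). GAB2 went from 6.05 and 10.1 TPM to 20.01 and 19.0 TPM, and SOS2 from 6.61 and 8.01 TPM to 17.2 and 13.98 TPM. MAPK3, which encodes the kinase ERK1, fell from 66.1 and 70.8 TPM to 47.3 and 52.0 TPM (−0.46 ± 0.11, limma adjusted p 0.0198). BRAF, named after its values were seen, rose by 0.54 (limma adjusted p 0.0377), with 12.7 and 12.6 TPM in DMSO and 21.2 and 16.6 TPM in JG342. MAPK3 and BRAF lost their calls without DMSO replicate 1, DMSO replicate 2 or JG342 replicate 1 (limma adjusted p 0.0660 to 0.136 and 0.131 to 0.168).

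Of the other receptors that signal through JAK kinases, 2 of 20 fitted genes were called (10%), against 18.4% of all genes, and this difference was not tested. The fit with the replicate block called 2 of the 20 higher and 1 lower, against 34.9% of all genes called. CSF2RB, the shared chain of the IL3, IL5 and GM-CSF receptors that works with JAK2, fell from 58.5 and 60.7 TPM to 38.6 and 34.6 TPM (−0.69 ± 0.11 SE, limma adjusted p 0.00436). IFNGR1, the interferon gamma receptor chain that works with JAK1, rose from 22.1 and 18.9 TPM to 31.3 and 26.6 TPM (0.48 ± 0.14, limma adjusted p 0.0424), and lost its call without DMSO replicate 1, DMSO replicate 2 or JG342 replicate 1 (0.0719, 0.246 and 0.168). IL2RG, the common gamma chain, was the highest of this list in DMSO, at 553.8 and 508.7 TPM, against 496.0 and 450.7 TPM in JG342 (−0.17, limma adjusted p 0.261).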
